A study of Homo sapiens with 14 samples.

Results

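The 3 D-type cyclin genes CCND1, CCND2 and CCND3 and the genes of their partner kinases, CDK4 and CDK6, were followed through the chromatin maps of an Ewing sarcoma line. They are 5 of the 19955 protein-coding genes on the autosomes and X in GENCODE release 44. They were taken by name and not by a cut on any measured value, though earlier results of these data were known. Each was examined over its gene body and with 10, 50 and 200 kb either side, in all 10 deposited peak lists. D-type cyclins are the regulatory subunits whose level links growth signals to the cell cycle. Bound to CDK4 or CDK6, they activate the kinase, which phosphorylates the retinoblastoma protein RB1 and so frees E2F transcription factors to drive entry into S phase. CCND1 is known as a target of the Ewing sarcoma fusion EWSR1::FLI1, and the fusion is known to bind microsatellites made of repeated GGAA units.

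The cells were of the TC-32 line, derived from an Ewing sarcoma and carrying EWSR1::FLI1. All libraries are labelled WT, for wild type, and the sample titles name no treatment. CUT&RUN was used, in which an antibody directs a nuclease to its target so that the DNA beside it is cut out and sequenced. The 14 libraries fall into sets A and B, and the labels do not say what the letters mean. FLI1 was mapped with 2 libraries in each set, H3K27ac (a mark of active promoters and enhancers) with 2 in set A, H3K9me3 (heterochromatin) with 2 in set B, and H3K27me3 (Polycomb repression) with 2 in set B. The other 4 libraries are IgG controls, 2 in each set, which serve only as the control of each peak list. H3K27ac and the repressive marks were thus mapped in different sets, so set and mark cannot be told apart where they are put side by side. The sample titles name the target only as FLI1, so the fusion and FLI1 itself cannot be told apart here. All libraries come from 1 cell line without a comparison line or treatment. The labels do not say that replicates came from separate cultures, so the spread between lists may be technical.

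Peaks, called regions here after overlapping rows of a list were joined, carry the authors' deposited fold over IgG. Because fold depends on depth, which the lists do not give, a region is compared across lists by its percentile of fold within its own list. In set A the FLI1 lists gave 35210 and 40590 regions, and in set B they gave 38221 and 29339. The mark lists held 10219 and 17366 for H3K27ac, 36687 and 21770 for H3K9me3, and 21461 and 16667 for H3K27me3. Of all FLI1 regions joined over the 4 lists, 29.3% were in all 4 and 37.6% in 1 list. As a check of the label, 2 further genes known to be bound by the fusion had FLI1 regions within 50 kb in every list. There were 6, 7, 6 and 5 at NR0B1 and 14, 19, 10 and 7 at NKX2-2. By the same rule 73.9% of all protein-coding genes had FLI1 in every list, so presence alone is a weak check. The medians over genes were 2, 3, 3 and 2 regions. Values over the FLI1 lists are always given in the order set A replicate 1, set A replicate 2, set B replicate 1, set B replicate 2, and values over the 2 lists of a mark as replicate 1, then replicate 2. With 2 libraries in a set, no exact test of set A against set B can pass the usual threshold, so none was made.

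The sequences below are those on which the comparison of repeat and FLI1 summit turns. The first holds the microsatellite upstream of CCND1, at chr11:69622072-69622234 on the plus strand of hg38. Runs of at least 4 GGAA units are in capitals.

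CCND1 upstream repeat: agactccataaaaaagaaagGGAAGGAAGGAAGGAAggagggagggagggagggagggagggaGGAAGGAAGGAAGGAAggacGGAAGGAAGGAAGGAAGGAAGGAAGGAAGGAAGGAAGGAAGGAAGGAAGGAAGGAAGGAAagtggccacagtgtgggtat

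The FLI1 summit of CCND1 next to its start, in all 4 lists, is at chr11:69639192-69639312 on the plus strand. Every GGAA or TTCC, the core of ETS factor sites, would be in capitals in this window.

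CCND1 proximal summit: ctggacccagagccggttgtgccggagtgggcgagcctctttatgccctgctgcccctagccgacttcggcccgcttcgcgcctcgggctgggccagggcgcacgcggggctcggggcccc

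The window held no GGAA or TTCC within 60 bp of its middle. Between 73.8% and 78.5% of all summits in the 4 FLI1 lists had one within that distance. Among all FLI1 summits within 200 kb of the members, the shares with such a core were 78.3%, 71.6%, 72.4% and 77.0% in the 4 lists. The share in other DNA stretches of the same length was not measured. A further repeat, downstream of CCND1 at chr11:69848516-69848635 and shown on the minus strand, also has 15 units, and is printed because the deposited FLI1 regions there were weaker. Much of this repeat DNA is not unique. Stretches of 31 bases were taken end to end from the first printed base, so the last bases of each window were not searched. Of 3 such stretches in the downstream window none occurred once in hg38, with 222 to 43089 copies. Of 5 in the upstream window 2 occurred once, with up to 22186 copies for the others. How the authors placed reads that fit several sites is not given in the sources used here, and its part in the values at either repeat was not tested.

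CCND1 downstream repeat: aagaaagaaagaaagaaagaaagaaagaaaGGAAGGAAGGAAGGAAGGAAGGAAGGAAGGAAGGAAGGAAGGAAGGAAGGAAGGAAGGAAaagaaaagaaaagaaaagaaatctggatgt

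CCND1 (ENSG00000110092, chr11:69641156-69654474, plus strand) had more FLI1 regions than any other member in every list, for each of the 3 flanks. With 50 kb either side of the gene body there were 21, 31, 22 and 18 FLI1 regions, and with 200 kb 26, 34, 26 and 20. By regions present in all 4 lists, CCND1 led only with 50 kb, where it had 8 and CCND3 had 6. With 10 kb CCND1 had 2 and CCND3 had 4, and with 200 kb CCND1 had 9 and CDK4 had 11. Of the 44 regions of CCND1 joined over the 4 lists with 200 kb, 20 were in 1 list, where 37.6% of all joined regions were. Within 50 kb of its start the numbers were 20, 30, 21 and 17, against a median of 2 over all protein-coding genes in each list. The 99th percentiles over genes were 13, 15, 14 and 12, so CCND1 lay above that level in all 4 lists. Only 4 genes of the 19955 had as many as CCND1 in every list: CCND1 itself, the neighbours CAV1 and CAV2, which encode caveolins, and IGF2BP1, which encodes an RNA-binding protein. Counted by covered bases in place of regions, 10 genes reached CCND1, and leaving out set A replicate 2 also gave 10. FLI1 regions covered 26.1, 28.7, 14.9 and 14.2 kb of the 100 kb around the start, so both set A lists covered more than both set B lists. The whole FLI1 lists differed in the same direction, with 27.3, 29.2, 21.4 and 18.1 Mb covered.

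**Figure D1:**
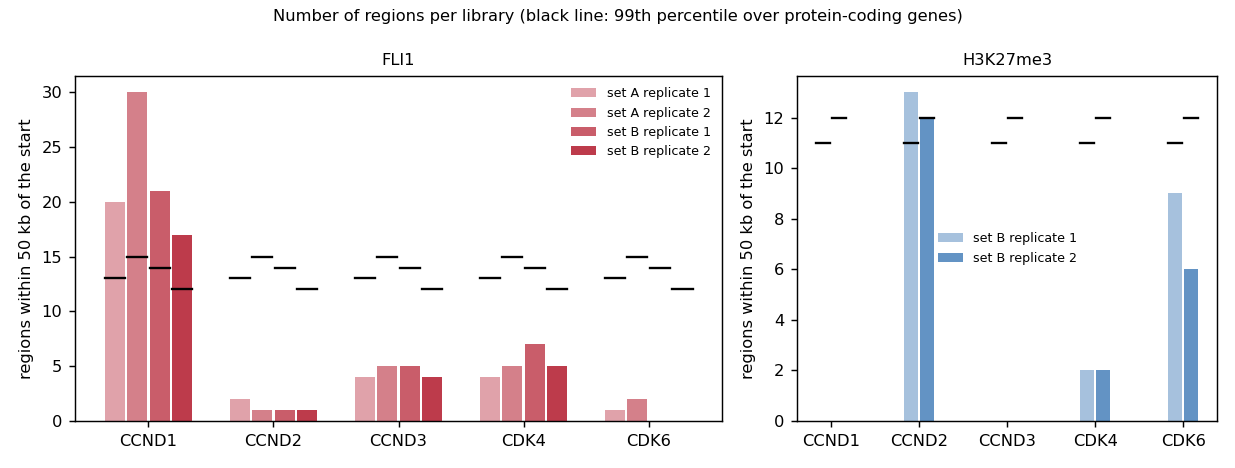
Number of FLI1 regions (left, 4 libraries) and H3K27me3 regions (right, 2 libraries) within 50 kb of each member's start, one bar per library, with black lines at the 99th percentile over all protein-coding genes. The CCND1 bars, 17 to 30 regions, stand above the FLI1 lines in every library, and the CCND2 bars, 13 and 12, lie at or above the H3K27me3 lines.

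The strongest FLI1 region of CCND1 was upstream, between genes, at chr11:69619093-69626732. Its deposited fold was 127, 141, 53.1 and 32.6, higher in both set A lists than in both set B lists. These folds were at percentiles 99.8, 99.8, 99.4 and 98.1 of their lists, so the region stood among the strongest of each library. Set A had it as a single region in each list, and set B as 3 regions in each. The 4 strongest summits fell within 81 bp of each other, the one of set A replicate 1 at 69621850, which is 19306 bp before the start. The microsatellite shown above lies just downstream of these summits, as runs of 4, 4 and 15 GGAA units. The distance from summit to the nearest run was 242, 237, 197 and 161 bp, and to the 15-unit run 305, 300, 260 and 224 bp. None of the 4 deposited summits lay on the repeat itself, where reads may not be placed uniquely.

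**Figure D2:**
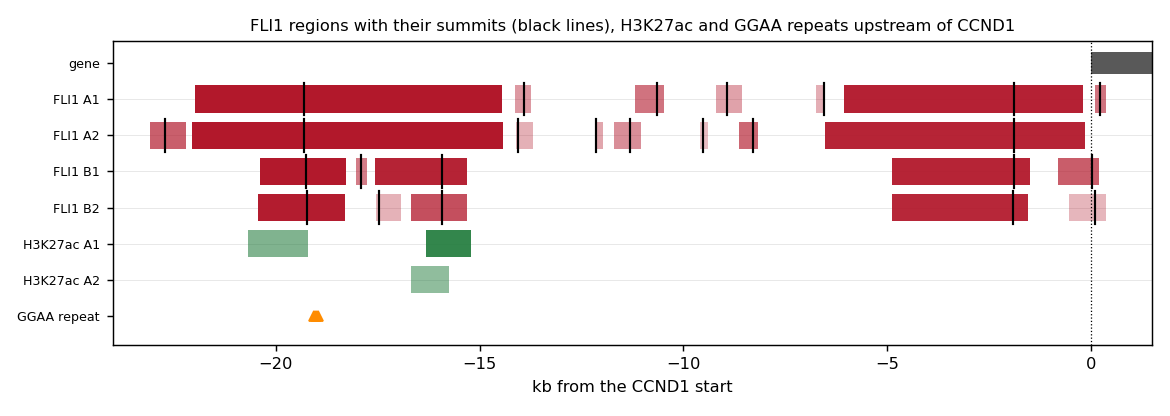
FLI1 and H3K27ac regions of each library upstream of CCND1, by distance from the gene start in kb, with black lines at the FLI1 summits and triangles at runs of at least 4 GGAA units. The 4 strongest summits stand within 81 bp of each other and 161 to 242 bp from the nearest run, and the proximal summits within 18 bp.

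Nearer the gene, a region at chr11:69634407-69641514 ran up to the CCND1 start. Its folds were 27.1, 22.2, 23.1 and 18.9, at percentiles 94.8, 93.3, 93.3 and 91.5, and the folds of the sets overlapped. Its summits lay within 18 bp of each other, at 69639254 in both set A lists, 69639250 and 69639236. In set B, separate weaker regions with folds of 9.42 and 4.75 covered the start itself. The third region in all 4 lists by percentile was distant, at chr11:69442309-69443843 in an intron of the non-coding gene LINC02952, with folds of 32.2, 30.5, 17.5 and 20.2. Inside the gene body the picture was less stable. Of 14 FLI1 regions there over the 4 lists joined, 10 were in 1 list and 2 in all 4. One of those 2 is the proximal region at the start, and the other spans the gene end at chr11:69653977-69656232, with folds of 10.6, 8.55, 9.33 and 10.5.

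The downstream 15-unit repeat had FLI1 regions only in set A, with folds of 6.58 and 5.21 at percentiles 47.1 and 28.7. Its nearest set B summits were 19901 and 67166 bp away. None of the stretches searched in the downstream window was unique, though its last bases were not searched. The folds at both repeats are values of the lists and were not read as a difference in binding.

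H3K27ac had 2 regions in each list within 200 kb of CCND1. Replicate 1 had regions at chr11:69620474-69621939, with a fold of 4.74, and at chr11:69624849-69625946, with a fold of 6.20. Replicate 2 had regions at chr11:69624483-69625403, with a fold of 4.49, and at chr11:69674814-69675314 at the start of the neighbour LTO1, with a fold of 4.80. The first region of replicate 1 spans all 4 strongest FLI1 summits, but replicate 2 had no region there. The bases in both H3K27ac lists, chr11:69624849-69625403, hold a second FLI1 summit of each set B list, 15914 and 15910 bp before the start, with folds of 24.1 and 10.3. None of the H3K27ac regions lay within 10 kb of the gene body in either list.

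H3K27me3 was absent from the lists within 10 kb of CCND1, and 1 and 0 regions lay within 50 kb. The widest stretch in both lists was 7.75 kb at chr11:69814255-69822006, on the side of FGF3, a fibroblast growth factor gene. H3K9me3 had 5 and 3 regions within 50 kb, with the widest stretch in both lists at chr11:69628533-69630689, 2.16 kb long. That stretch lies between the upstream and the proximal FLI1 region. Weaker FLI1 regions of set A lie inside it. One is chr11:69629457-69630684, in both set A lists with folds of 6.58 and 5.53. The other is chr11:69628988-69629187, in set A replicate 2 alone with a fold of 4.75.

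**Figure D3:**
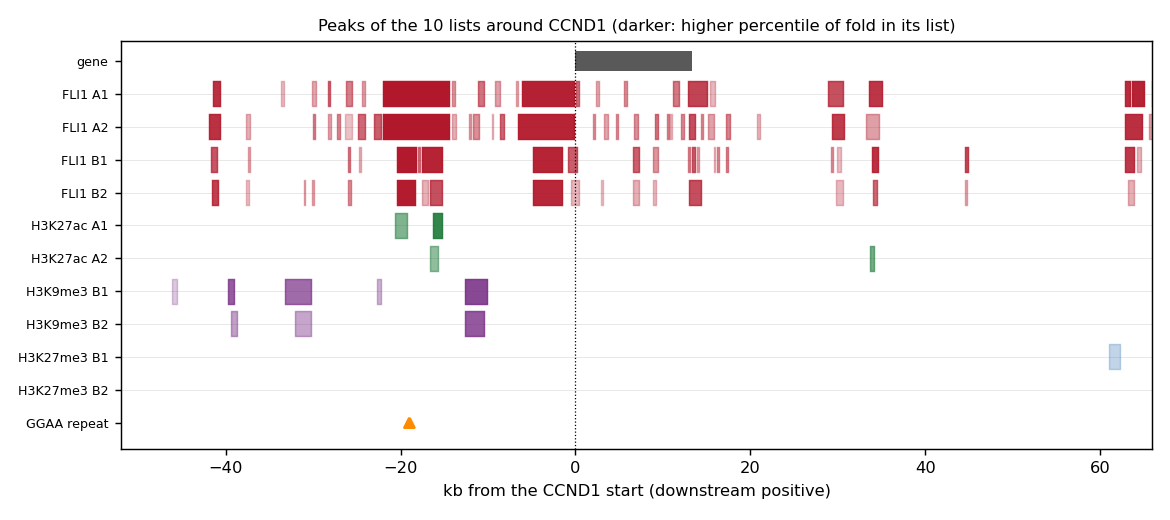
Regions of all 10 lists around CCND1, 1 row per library, by distance from the start in kb, darker where the fold ranks higher in its list, with the gene as a grey bar and runs of at least 4 GGAA units as triangles. FLI1 regions crowd both sides of the start in all 4 libraries, H3K27ac is limited to 2 regions per library, and the only H3K27me3 region in view is in 1 library.

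CCND2 (ENSG00000118971, chr12:4269771-4305353, plus strand) showed the reverse pattern. There was no FLI1 region in its gene body or within 10 kb in any of the 4 lists. Within 50 kb there were 2, 1, 1 and 1, all part of a region at chr12:4320474-4321862 over the start of the neighbour TIGAR, which encodes a regulator of glycolysis. Its folds were 9.03, 8.31, 12.0 and 15.6. H3K27me3 instead covered the CCND2 start in both lists. The region of replicate 1 was chr12:4267967-4277098 with a fold of 9.01, at percentile 99.8 of its list. The region of replicate 2 was chr12:4268342-4277097 with a fold of 6.98, at percentile 98.4, and the bases in both lists span 8.76 kb. Within 50 kb of the start there were 13 and 12 H3K27me3 regions, which covered 36.7% and 19.6% of the window. As many in both lists were found at 85 genes, 0.426% of all. With 200 kb either side the numbers rose to 39 and 27 regions over 72.4 and 32.9 kb, so the covered bases differed more between the lists than the number of regions. Over the gene body with 10, 50 and 200 kb either side, 277, 319 and 134 genes had as many H3K27me3 regions in both lists. These are 1.39%, 1.60% and 0.672% of all genes. H3K27ac had no region within 200 kb of CCND2 in either list, and H3K9me3 had 2 and 1.

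A repeat of 9 units far upstream of CCND2, at chr12:4096152-4096247 and shown on the minus strand, is printed because it is the only run of at least 4 units near a member other than CCND1 with a FLI1 summit within 250 bp. Capitals mark runs of at least 4 GGAA units.

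CCND2 far upstream repeat: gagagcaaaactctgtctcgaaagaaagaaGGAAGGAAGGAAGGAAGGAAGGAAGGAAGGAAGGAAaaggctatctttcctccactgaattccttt

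The FLI1 region there, chr12:4095198-4096572, was in 3 lists, with folds of 17.6, 12.5 and 8.48, and set B replicate 2 had none. The nearest summits lay 304, 260 and 74 bp from the run. Of 3 stretches of 31 bases across this window 2 occurred once in hg38, and the other had 22827 copies. A second region upstream, chr12:4091099-4091756, was in all 4 lists, with folds of 4.92, 13.4, 11.4 and 12.0.

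CCND3 (ENSG00000112576, chr6:41934934-42050357, minus strand) had neither repressive mark within 200 kb in any list, the single member of which this was so. Its gene record starts 108549 bp upstream of the start of its Ensembl canonical transcript, the 1 transcript chosen to represent the gene, and FLI1 lay at both. At the gene record start the region was chr6:42050298-42051061, with folds of 19.0, 16.2, 9.05 and 19.5. These were at percentiles 90.5, 88.5, 57.8 and 92.2, so set B replicate 1 stood below the other 3 lists. The summits lie closer to the start of the divergent neighbour TAF8, a subunit gene of the TFIID complex. At the canonical start the region was chr6:41940818-41942189, with folds of 12.3, 11.5, 17.1 and 17.1 at percentiles 80.3, 80.3, 86.9 and 89.3. Its summits spread over 73 bp, and the window around them, chr6:41941973-41942093 on the minus strand, is shown with each GGAA or TTCC in capitals.

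CCND3 canonical start summit: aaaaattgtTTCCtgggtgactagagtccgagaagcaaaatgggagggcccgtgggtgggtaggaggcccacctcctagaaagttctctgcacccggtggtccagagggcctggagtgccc

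It holds 1 such core. The regions with the highest mean percentile in the wider window lay at other genes. One was chr6:41786156-41788216 by TOMM6, with folds of 22.1, 22.3, 15.98 and 15.1, and the other chr6:41920733-41921675 by the Mediator subunit gene MED20, with folds of 33.9, 32.3, 14.0 and 10.1. H3K27ac in both lists was found just beside the latter, at chr6:41921711-41922595, and had 1 and 4 regions within 50 kb of CCND3.

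CDK4 (ENSG00000135446, chr12:57747727-57756013, minus strand) had 1 FLI1 region in its gene body in each list, at the canonical start. The region, chr12:57751911-57752864, had folds of 7.15, 5.95, 25.3 and 13.8. By percentile these were 53.5, 39.7, 94.6 and 82.2, so the sets did not overlap and B was higher. The summits differed as well, at 57752712 and 57752711 in set A and 57752554 in both set B lists, 158 bp apart at most. The windows around both positions, chr12:57752652-57752772 for set A replicate 1 and chr12:57752494-57752614 for set B, are shown on the minus strand for that difference. Neither held a GGAA or TTCC.

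CDK4 set A summit: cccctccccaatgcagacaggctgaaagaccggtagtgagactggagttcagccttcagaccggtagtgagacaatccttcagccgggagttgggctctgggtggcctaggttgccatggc
CDK4 set B summit: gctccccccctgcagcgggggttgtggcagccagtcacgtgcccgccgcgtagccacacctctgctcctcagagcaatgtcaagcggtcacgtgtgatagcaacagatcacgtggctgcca

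The gene record of CDK4 starts 3703 bp further upstream, and no list had a FLI1 region within 1 kb of it. The strongest region near CDK4 was chr12:57744455-57745809 at the start of the neighbour TSPAN31, a tetraspanin gene, with folds of 17.95, 40.2, 21.02 and 18.9. Next came chr12:57836663-57839300 in CTDSP2, a small phosphatase gene, with folds of 15.5, 19.4, 39.7 and 14.0, and chr12:57845973-57847427 at the CTDSP2 start, with folds of 29.6, 27.2, 29.5 and 9.28. H3K27me3 flanked CDK4 without reaching the gene body. On the downstream side it lay at chr12:57733087-57741310 and chr12:57734108-57740371 over AGAP2, with folds of 5.65 and 6.09. On the upstream side it lay over CYP27B1, the vitamin D activating hydroxylase gene, with folds of 4.32 and 4.47. H3K27ac had 0 and 2 regions within 50 kb of CDK4 and 8 and 16 within 200 kb, and H3K9me3 had none within 50 kb and 6 and 5 within 200 kb.

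CDK6 (ENSG00000105810, chr7:92604921-92836573, minus strand) had both FLI1 and H3K27me3 at its start, mapped in different sets. FLI1 lay there in set A only, at chr7:92835687-92836025, with folds of 7.81 and 4.00 at percentiles 59.4 and 6.03, and set B had no FLI1 region within 50 kb of the start. H3K27me3 covered the start in both of its lists, at chr7:92834826-92837476 and chr7:92836253-92837479, but weakly for those lists. The folds were 4.30 and 4.13, at percentiles 20.1 and 7.41. Stronger H3K27me3 lay further upstream in CDK6-AS1, at chr7:92840068-92842821 and chr7:92839928-92844026, with folds of 5.68 and 5.59. Within 50 kb of the start there were 9 and 6 H3K27me3 regions, and 465 genes, 2.33% of all, had as many in both lists. Over the gene body with 10, 50 and 200 kb either side, 883, 812 and 3404 genes had as many as CDK6 in both lists. These are 4.42%, 4.07% and 17.1% of all genes.

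Deep inside the gene, FLI1 was present in all 4 lists in an intron, at chr7:92632991-92635414. The folds were 12.2, 16.5, 13.7 and 13.0 at percentiles 79.9, 88.8, 79.8 and 79.6, and the summits lay within 24 bp. The window chr7:92633359-92633479 on the minus strand is shown as the only FLI1 region in all 4 lists inside CDK6, and it held no GGAA or TTCC.

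CDK6 intron summit: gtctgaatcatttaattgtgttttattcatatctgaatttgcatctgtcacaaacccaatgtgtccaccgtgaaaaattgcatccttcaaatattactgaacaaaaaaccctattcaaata

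The strongest region within 200 kb was chr7:92446947-92449080 at the start of GATAD1, with folds of 20.8, 25.7, 41.6 and 16.5, followed by the CDK6 intron and by chr7:92527876-92529047 at RBM48, with folds of 9.82, 6.22, 14.9 and 11.2. H3K9me3 had 1 and 2 regions within 10 kb of the CDK6 body and 9 and 6 within 200 kb, and H3K27ac had 0 and 1 within 200 kb.

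**Figure D4:**
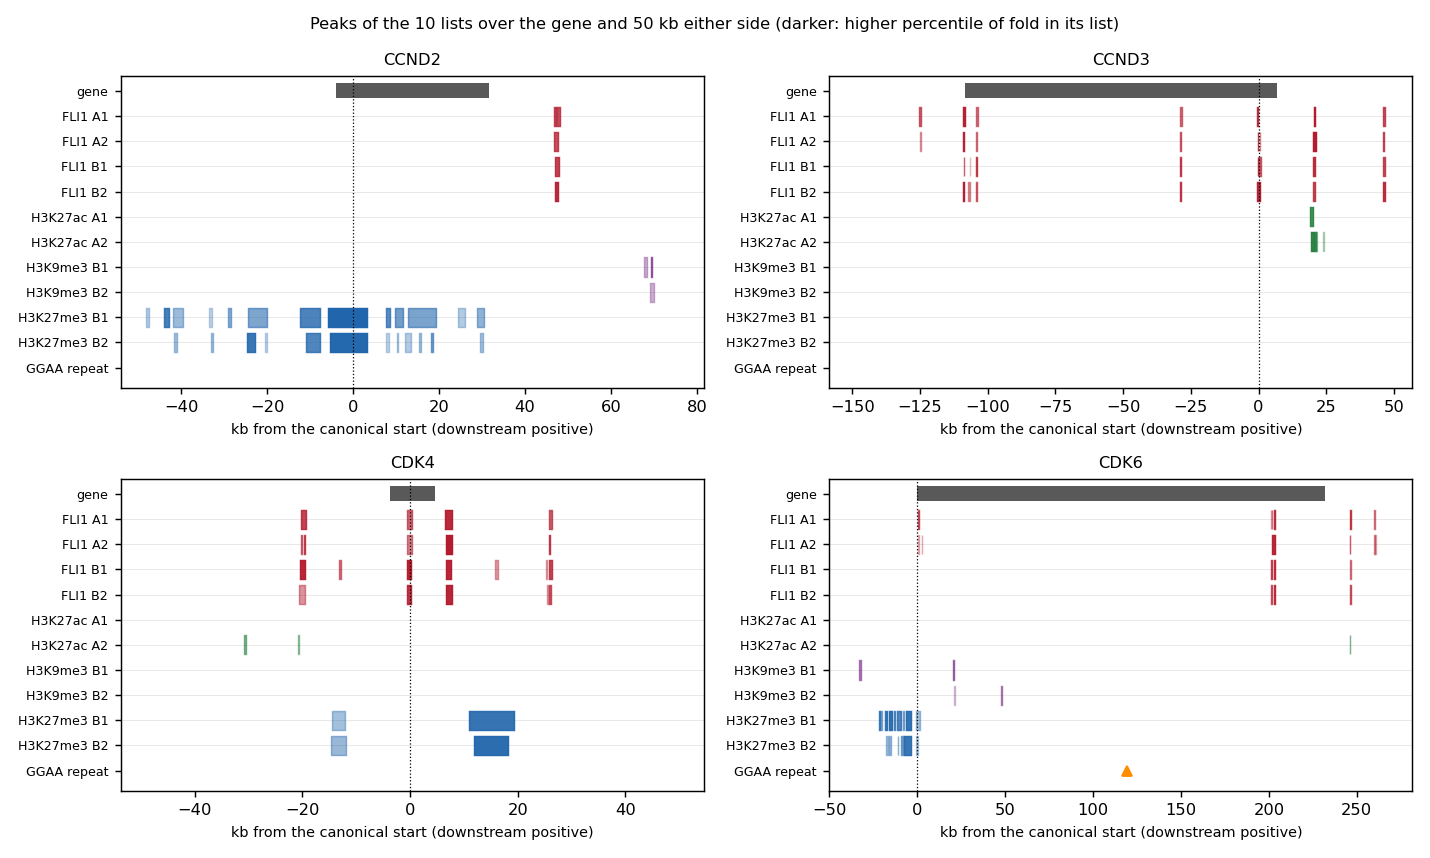
Regions of all 10 lists over CCND2, CCND3, CDK4 and CDK6 with 50 kb either side, 1 row per library, by distance from the canonical start in kb, darker where the fold ranks higher in its list, with runs of at least 4 GGAA units as triangles. H3K27me3 covers the CCND2 start in both libraries, CCND3 has no repressive mark, H3K27me3 flanks CDK4, and FLI1 at the CDK6 start is in set A only.

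Counted over the 5 members, FLI1 in all 4 lists lay within 1 kb of the gene record start of CCND1 and CCND3, 2 of 5, where 33.8% of all genes met the same rule. With canonical starts CDK4 joined them, 3 of 5 against 35.4% of genes. H3K27me3 in both lists lay at the CCND2 and CDK6 starts, 2 of 5, against 9.48% of genes by record start and 9.97% by canonical start. H3K27ac lay at 0 of 5 starts, against 11.3% and 12.4%, and H3K9me3 at 0 of 5, against 1.39% and 1.24%. With 5 members, no test was made against these shares.

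In the gene body with 10 kb either side, FLI1 was in all 4 lists at 4 members, all but CCND2, against 56.3% of genes. With 50 and 200 kb it was at all 5, against 73.9% and 91.4%, so presence in the wider windows does not set the members apart. H3K27ac in both lists was at 0, 2 (CCND1 and CCND3) and 3 (with CDK4) members for 10, 50 and 200 kb, against 28.3%, 44.8% and 70.6% of genes. H3K27me3 was at 3 members with 10 kb and 3 with 50 kb, CCND2, CDK4 and CDK6, against 17.6% and 29.4%, and at 4 with 200 kb, when CCND1 is added, against 53.5%. H3K9me3 was at 1 (CDK6), 3 (with CCND1 and CCND2) and 4 (with CDK4), against 25.3%, 44.5% and 77.4%.

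Most FLI1 summits near the members had no GGAA repeat. In the 4 lists, 1 of 69, 2 of 81, 2 of 76 and 1 of 61 summits within 200 kb of the members had at least 4 units within 250 bp. Over the whole lists the shares were 4.3%, 4.22%, 3.98% and 4.27%. All 6 of these summits belong to the CCND1 upstream repeat (1 in each list), the CCND1 downstream repeat (set A replicate 2) and the CCND2 far upstream repeat (set B replicate 1). CCND3, CDK4 and CDK6 had none in any list, and an intronic run of 4 units in CDK6 had its nearest FLI1 summits 82070 to 83986 bp away.

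Of the 34 FLI1 regions in all 4 lists within 200 kb of the members, 9 were at CCND1, 2 at CCND2, 7 at CCND3, 11 at CDK4 and 5 at CDK6. Bases of both H3K27ac lists were overlapped by 3 of the 34, 1 at CCND1 and 2 at CDK4, where 12.4% of all such regions did so. Either H3K27ac list was overlapped by 9, where 30.8% of all such regions did so. None of the 34 overlapped H3K27me3 or H3K9me3 of either list, which 0.353% and 2.28% of all such regions did.

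Among the wider set of 25 genes that act around the passage from G1 to S phase, 11 had FLI1 at the gene record start in all 4 lists, against the 33.8% of all genes given above. These were CCNE2, CDK2, RB1, E2F1, E2F2, E2F3, E2F4, SKP2 and the kinase inhibitor genes CDKN2A, CDKN2C and CDKN2D. With canonical starts 11 were called too, against 35.4% of all genes, with CDKN1A in place of CDKN2A. No list had a FLI1 region within 1 kb of the CDKN2A canonical start. At CCNE2, which encodes the cyclin that acts after the D-type cyclins, the folds were 9.85, 13.8, 11.8 and 10.7. At E2F4, a repressor E2F, they were 11.3, 14.3, 21.01 and 13.4. At RB1, the main substrate of the cyclin D kinases, they were 8.21, 6.001, 9.91 and 7.77. At CDK2, the partner of cyclin E, they were 4.70, 8.77, 10.5 and 14.0. H3K27ac in both lists lay at the gene record starts of 5 of the 25, against 11.3% of all genes. They were E2F2, E2F5, SKP2, RBL1 and AMBRA1, which encodes the ligase adaptor that targets D-type cyclins for degradation. With canonical starts CDKN1B was added, 6 of 25 against 12.4% of all genes. H3K9me3 and H3K27me3 lay at none of the 25 in both lists, while 1 of them, the kinase inhibitor gene CDKN1C, had H3K27me3 in replicate 1 alone. Its fold there was 5.13, at percentile 73.1, above the CDK6 start regions of 4.30 and 4.13, and the CDK6 start was not called with a deposited −log10 q of at least 5.

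Likeness to other genes was measured as the mean absolute difference, over the 10 lists, in the percentile of the strongest region in the gene body with 10 kb either side. Nearest to CCND1 were TFG (0.386 percentile points), ZNF771 (0.396) and CCDC61 (0.403), all with strong FLI1 and no mark. Nearest to CCND2 were SLC32A1 (0.0278), POMC (0.0372) and FOXD4L1 (0.0458), with H3K27me3 alone. Nearest to CCND3 were STARD10 (0.274), RASD2 (0.667) and LARP7 (0.684). CDK4 and CDK6 had no gene so close: ESRRB (1.29), SPTLC2 (1.68) and ROBO3 (1.74) for CDK4, and SCUBE2 (4.66), PRRX1 (4.91) and CNTNAP2 (6.09) for CDK6. This measure looks at strength and not at the number of regions. A list without a region counts as 0, so the difference can grow with the number of lists that hold regions. CDK4 and CDK6 had regions in more lists than the other members, so the members cannot be ranked by it.

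Agreement between FLI1 lists also differed within the members. At CCND1, 50% and 47.1% of the set A regions within 200 kb had a set B counterpart, against 66.5% and 62.1% over the whole set A lists. For the other 4 members together the shares were 83.7% and 80.9%. In the other direction, 84.6% and 80.0% of the set B regions at CCND1 had a set A counterpart, against 72.5% and 79.3% over the whole lists. The upstream and the proximal region of CCND1 were among those found in both sets.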

How the data were processed

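The 10 deposited lists hold peaks, which the authors called per library without pooling replicates. The control was the IgG library of the same number, taken here to be that of the same set, and duplicates had been removed, per the peak names in the files. The FLI1 and H3K27ac lists hold narrow peaks with summits, and the H3K9me3 and H3K27me3 lists broad peaks without. Bowtie2, MACS2 2.1.1, Picard 2.17.11, cutadapt 4.4 and GRCh38 (hg38) are named in the submitters' processing notes, without their roles. For each peak the deposited lists give the fold over IgG as a ratio, the −log10 p and −log10 q, and a score. The lowest deposited −log10 q ran from 2.00 to 2.03. The lists give no read totals, so the depth behind a value is unknown and no interval was computed.

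Rows on the 22 autosomes and X were used, overlapping rows of a list were joined with the values of the most significant one kept, and coordinates are hg38, counted from 1. A gene was called for an antibody when all of its lists had a region within the window. FLI1 regions of the 4 lists were joined where they shared at least 1 base. GGAA repeats are the full runs of GGAA or TTCC units that reach within 250 bp of a summit. The 5 members were always named. FLI1 regions named with values were those within 1 kb of a member's start, the 3 in all 4 lists with the highest mean percentile of fold, and the 3 with the longest repeat at a summit. Repeats printed without a region in all 4 lists, other regions named at CCND1, and CDKN1C, were picked after their values were seen. The widest region of each mark in both lists, and the 3 most similar genes per member, were also named. Members and lists were chosen with earlier results of these data known. The counting code was tested on simulated data. Alternatives covered distance and kind of start, peak threshold, overlap rule, repeat length and distance, and leaving out each library. Python 3.11.15, numpy 2.4.6, pandas 2.3.3, pyfaidx 0.9.0.4 and matplotlib 3.10.9 were used. Reads, spike-in counts and IgG libraries were not analysed here. The sequence at 1 FLI1 summit is not reported here.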

Additional observations from a re-analysis of the deposited data

How the results depend on the processing

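Of 67 alternatives over 10 results, 55 stayed within 1.5 times the reported count and 12 did not. H3K27me3 at the start fell from 2 members to 1, CCND2, with a deposited −log10 q of at least 5. Asking for 50% reciprocal overlap left 3, 6 and 10 FLI1 regions in all 4 lists for 10, 50 and 200 kb, in place of 9, 21 and 34. The 6 FLI1 summits with a GGAA repeat became 3 with at least 6 units, 1 within 100 bp and 10 within 500 bp. The 3 FLI1 regions on H3K27ac of both lists became 9 with either list and 1 when a FLI1 summit had to lie inside the mark, and ranged from 4 to 9 when 1 H3K27ac list was left out, the 9 being without replicate 1. The 4 genes with as many FLI1 regions as CCND1 within 50 kb of the start became 10 by covered bases. Their number ranged from 4 to 10 when 1 library was left out, the 10 being without set A replicate 2. The cause of these shifts was not tested. The canonical start and all alternatives to the CCND1 count were chosen after seeing the data. No paired analysis was possible because the results are counts of regions that come from no test. Peak lists show only what passed each library's threshold, so a missing region may be signal below it. No expression was measured, so nothing here bears on the level of any cyclin or kinase.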
